A study of Mus musculus with 10 samples.

Results

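The genes of the T helper 1 (Th1) axis were described in regulatory T cells (Tregs) of the mouse spleen. The 9 genes were chosen with earlier results of these data known, so counts over them are a description. They include the transcription factors Tbx21 and Stat4, the cytokine Ifng, and the IL-12 receptor chains Il12rb1 and Il12rb2. The others are the IL-18 receptor chains Il18r1 and Il18rap, and the interferon-gamma receptor chains Ifngr1 and Ifngr2. Each of the 9 genes had 1 probe set on the array, so all 9 were measured among 19938 genes.

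Gene expression was measured on 10 Affymetrix Mouse Gene ST 1.0 arrays, each hybridised with RNA of sorted CD4+ spleen cells that carried a red fluorescent protein reporter of Foxp3. The mice were C57BL/6 females of 9 to 14 weeks. The 2 arrays of FR1 came from CD62Lhi CD69- Klrg1- cells and the 2 of FR2 from cells that were CD62Llo but still CD69- and Klrg1-. The CD62Llo CD69+ cells made up FR3, with 4 arrays of Klrg1- cells and 1 of Klrg1+ cells. All groups share the reporter and the CD4+ gate, and no mouse treatment is named in the labels. CD62L is the lymph node homing receptor of resting T cells, CD69 an early activation marker and Klrg1 a receptor of differentiated lymphocytes. Arrays of a group are labelled as biological replicates, and the sources used here do not say whether animals were pooled. Since RNA came from sorted populations, fewer cells that express a gene and less RNA per cell cannot be told apart.

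T-bet, the product of Tbx21, is the transcription factor that defines Th1 cells, and it is also known in a subset of Tregs that restrain Th1 responses. IL-12 acts through Il12rb1 and Il12rb2 and the signal transducer Stat4, while IL-18 binds the chain encoded by Il18r1 and signals once the accessory chain encoded by Il18rap has joined. Both cytokines are known to induce interferon-gamma, which signals back through Ifngr1, the binding chain, and Ifngr2, the signalling chain.

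By their correlation the arrays fell apart into 2 sets, and FR3 Klrg1- was split between them. All of FR1 and FR2 belonged to the first set, with replicates 1 and 2 of FR3 Klrg1-. Its replicates 3 and 4 belonged to the second, with the array of FR3 Klrg1+. Arrays correlated at 0.9803 to 0.9955 over the genes within a set, and at 0.9254 to 0.9464 between sets. Within FR3 Klrg1- alone, 10.3% of all genes differed by 1 or more on the log2 scale between the mean of the second set and that of the first. Comparisons were therefore made within a set, by limma over the 9 grouped arrays with the array set as a term and Benjamini-Hochberg adjustment over all genes. The remaining array was titled as FR3 with the marker text of FR1 (CD62Lhi CD69- Klrg1-) and was placed in no group. The array in no group had a Klrg1 level of 12.41 (log2 RMA intensity), which went against that text, since Klrg1 ran from 5.43 to 7.47 on the Klrg1- arrays and stood at 12.33 on the FR3 Klrg1+ array. The transcript of the gate marker Cd69 was at 11.86 to 12.41 in the first set, highest on an FR1 array, and at 9.73 to 10.24 in the second, and it did not pass between FR3 Klrg1- and FR2 (0.07, limma adjusted p = 0.918).

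The labelled cell type was checked against markers. All 8 measured T cell and Treg markers lay above the array median on at least 1 array, and their mean was 11.28 to 11.67 across the grouped arrays. NK cells and CD8 T cells also express several Th1 axis genes, so their markers were examined. The 11 measured markers of NK cells and type 1 innate lymphoid cells averaged 5.22 to 5.36 in the first set and 5.64 to 5.81 in the second, and 7 of them (Ncr1, Klrb1c, Eomes, Klra8, Klre1, Gzma and Fcgr3) were below the array median on every grouped array. The 3 CD8 markers averaged 6.21 to 6.65, highest in FR1, and Cd8a and Cd8b1 were not below the median on every array. Averages over markers were low on all grouped arrays for B cells (5.39 to 5.58) and neutrophils (4.78 to 4.97). So was the average for macrophages, monocytes and dendritic cells (5.18 to 5.43). Among these markers, Cd79b and Zbtb46 were not below the median on every array. Fcgr1 and Flt3 were called higher in FR3 Klrg1+, and Cd79a and the CD8 marker Cd8b1 lower in FR3 Klrg1- against FR1. Of the T cell and Treg markers, Il2ra was lower and Ikzf2 higher in FR2 and in FR3 Klrg1-, each against FR1. Ctla4 was higher in FR3 Klrg1- against FR2 and against FR1, and Cd3e and Cd4 were higher in FR3 Klrg1- against FR1. The part of other cells in the results was not tested.

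Promoter sequence was taken from RefSeq (build GRCm38.p6), which held 11 windows for 8 of the 9 genes, from 250 bases before to 50 after an annotated start. Windows of 4 of the 5 genes that rose between FR1 and FR2 are shown, without Il12rb1, for which no window was used here, and beside them that of Il12rb2, which did not pass in any comparison. Of the 3 windows of Il18r1, the one that held a motif is shown, and the other 2 held neither. Capitals mark a STAT site, TTCNNNGAA, or the T-box motif bound by T-bet, TCACAC, both searched on both strands. The windows are Tbx21 at chr11:97115282-97115581 (minus strand), Ifng at chr10:118440796-118441095 (plus strand), the third annotated start of Il18r1 at chr1:40465756-40466055 (plus strand), Il18rap at chr1:40515112-40515411 (plus strand) and Il12rb2 at chr6:67376139-67376438 (minus strand).
Tbx21: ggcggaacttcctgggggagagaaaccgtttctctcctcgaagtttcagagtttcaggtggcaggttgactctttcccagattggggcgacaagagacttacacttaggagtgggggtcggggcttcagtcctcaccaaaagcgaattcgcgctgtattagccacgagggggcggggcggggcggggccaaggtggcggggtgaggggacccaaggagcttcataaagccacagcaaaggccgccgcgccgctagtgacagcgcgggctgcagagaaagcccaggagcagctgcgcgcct
Ifng: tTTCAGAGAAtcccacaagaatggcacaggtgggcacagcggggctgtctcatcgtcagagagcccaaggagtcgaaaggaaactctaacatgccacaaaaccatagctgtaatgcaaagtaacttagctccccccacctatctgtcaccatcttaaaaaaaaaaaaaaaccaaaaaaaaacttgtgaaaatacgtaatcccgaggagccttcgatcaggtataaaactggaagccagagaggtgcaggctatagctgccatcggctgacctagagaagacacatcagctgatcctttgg
Il18r1: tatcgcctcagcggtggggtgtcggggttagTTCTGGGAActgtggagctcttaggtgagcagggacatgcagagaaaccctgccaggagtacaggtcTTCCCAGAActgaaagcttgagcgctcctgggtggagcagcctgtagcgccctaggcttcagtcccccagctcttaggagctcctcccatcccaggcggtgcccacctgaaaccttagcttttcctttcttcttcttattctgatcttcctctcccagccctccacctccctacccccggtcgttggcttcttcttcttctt
Il18rap: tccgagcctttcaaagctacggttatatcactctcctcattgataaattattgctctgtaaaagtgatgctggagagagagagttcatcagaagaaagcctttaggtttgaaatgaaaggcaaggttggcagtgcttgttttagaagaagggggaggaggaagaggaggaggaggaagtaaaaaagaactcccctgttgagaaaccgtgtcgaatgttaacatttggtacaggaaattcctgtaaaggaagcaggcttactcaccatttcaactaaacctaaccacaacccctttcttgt
Il12rb2: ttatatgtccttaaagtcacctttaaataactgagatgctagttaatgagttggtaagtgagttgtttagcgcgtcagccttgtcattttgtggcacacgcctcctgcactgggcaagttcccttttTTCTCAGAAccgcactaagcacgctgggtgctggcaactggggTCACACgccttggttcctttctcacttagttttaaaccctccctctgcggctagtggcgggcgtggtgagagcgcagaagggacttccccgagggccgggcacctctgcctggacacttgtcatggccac

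A STAT site was found in 3 of the 11 windows, against 8.3% of all 32851 promoter windows. The matches were TTCAGAGAA in Ifng, 249 bases before the start, TTCTCAGAA in Il12rb2, 123 bases before it, and TTCTGGGAA and TTCCCAGAA in Il18r1, 219 and 152 bases before the third start. The T-box motif was in 1 of the 11 windows, that of Il12rb2, 80 bases before the start and with no overlap with the STAT site, against 14.5% of all windows. The windows of Tbx21 and Il18rap held neither motif. A match is a description of letters, and binding was not measured.

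From FR1 to FR2, the step from CD62Lhi to CD62Llo cells, 5 of the 9 genes rose and 1 fell. Those that rose were both IL-18 receptor chains, Tbx21, Ifng and Il12rb1, and the gene that fell was Ifngr2. Over all genes 1.96% rose and 2.3% fell. The median change of the 9 genes was 0.58 on the log2 scale, against 0.02 over all genes.

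From FR2 to FR3 Klrg1-, the step to CD69+ cells, Ifng rose further while Il18r1 and Ifngr1 fell, and 2.81% of all genes rose and 1.94% fell. Over both steps, FR3 Klrg1- against FR1, 4 of the 9 genes rose (Tbx21, Ifng, Il12rb1 and Il18rap) and both interferon-gamma receptor chains fell, where 4.39% of all genes rose and 3.79% fell. These 3 comparisons share their arrays. Between FR3 Klrg1- and FR3 Klrg1+ in the second set, Il18r1 and Il18rap rose and Ifng fell, where 2.14% of all genes rose and 2.82% fell. The single FR3 Klrg1+ array was assumed to vary like the other groups.

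**Figure D1:**
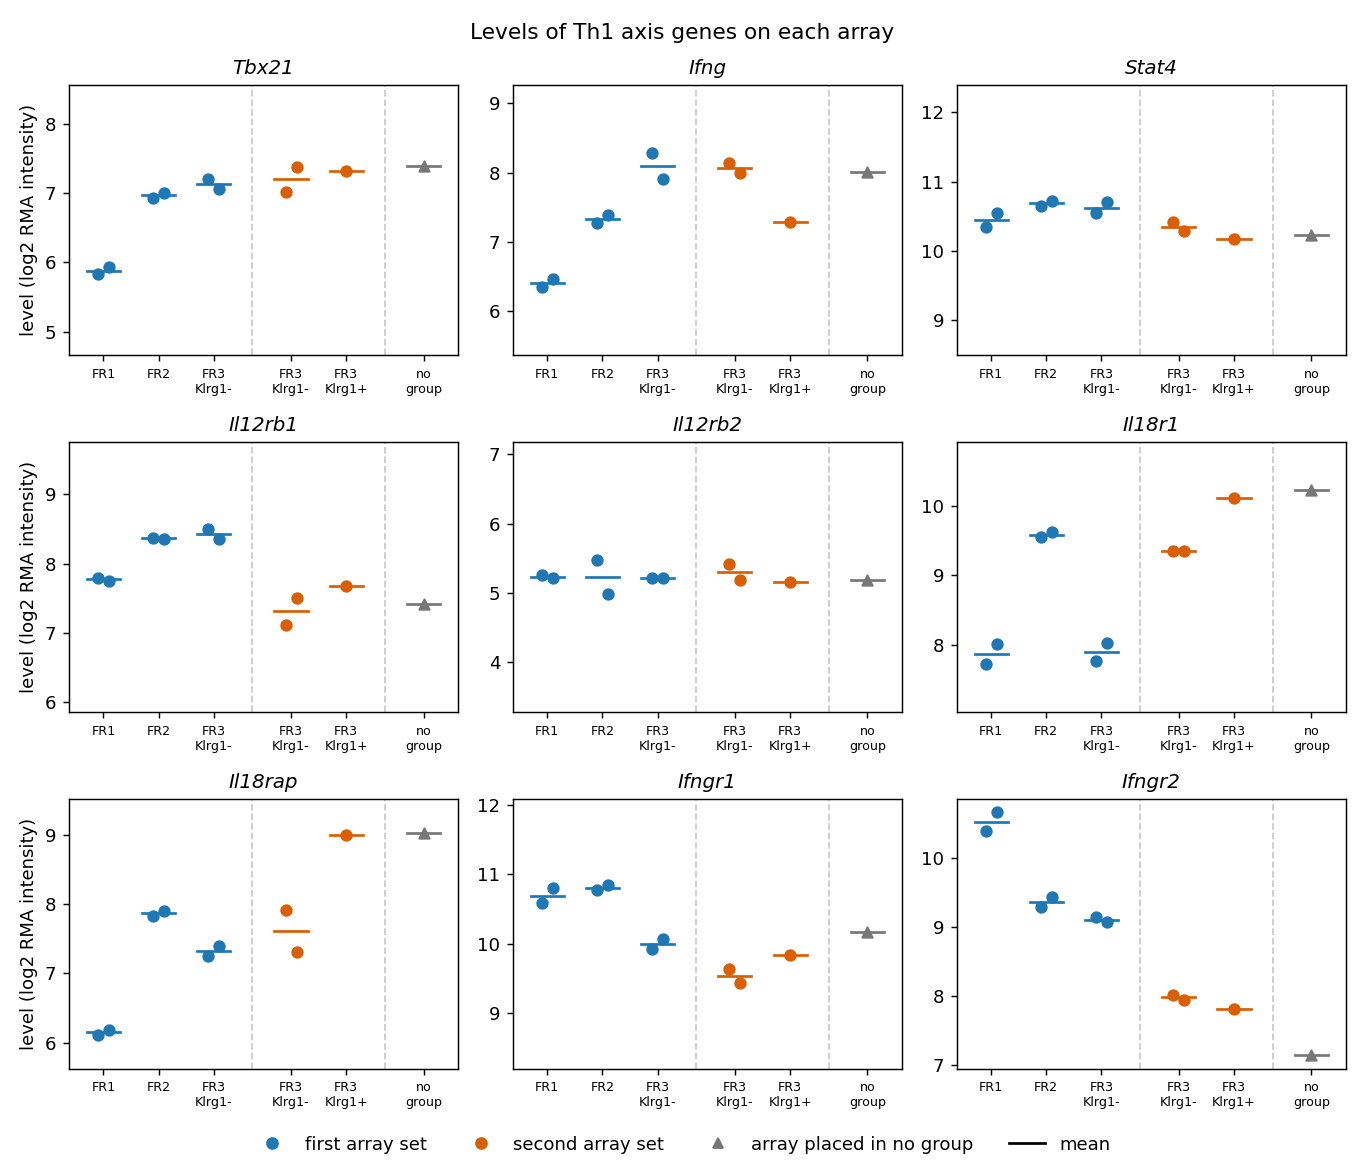
Each panel plots the level of 1 gene (log2 RMA intensity, vertical axis, 3.9 units high in every panel) on each array, by group on the horizontal axis. Points are arrays and lines are means, blue for the first array set, orange for the second and a grey triangle for the array placed in no group. Il18r1 is high in FR2 (9.55 and 9.63) between FR1 and FR3 Klrg1- of the same set, and Il18rap is highest on the FR3 Klrg1+ array (9.00) and on the array in no group (9.03).

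Tbx21 stood at 5.83 and 5.93 in FR1 replicates 1 and 2, at 6.93 and 7.0 in FR2, and at 7.20 and 7.06 in FR3 Klrg1- of the first set. In the second set it was at 7.02 and 7.38 in FR3 Klrg1- and at 7.32 in FR3 Klrg1+. Both FR1 arrays lay below every other array, while FR2 and FR3 Klrg1- were close to each other. Tbx21 rose by 1.09 ± 0.14 (SE) from FR1 to FR2, a 2.12-fold rise (limma adjusted p = 0.000315), and was 1.26 ± 0.14 higher in FR3 Klrg1- than in FR1 (limma adjusted p = 2.81e-05). The second step, 0.17 with a 95% interval of -0.14 to 0.47, did not pass, nor did FR3 Klrg1+ against FR3 Klrg1-, at 0.12 (-0.25 to 0.50). The FR3 Klrg1- means of the array sets differed by 0.07.

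Stat4, which carries the IL-12 signal to the nucleus, was at 10.35 and 10.54 in FR1, 10.65 and 10.72 in FR2, 10.54 and 10.71 in FR3 Klrg1- of the first set, 10.41 and 10.28 in FR3 Klrg1- of the second and 10.17 in FR3 Klrg1+. It did not pass in any of the 4 comparisons. Its largest difference was 0.24 between FR2 and FR1, with a 95% interval of -0.05 to 0.52.

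Ifng, the effector cytokine of the axis, was at 6.35 and 6.47 in FR1, at 7.27 and 7.39 in FR2 and at 8.28 and 7.91 in FR3 Klrg1- of the first set. In FR3 Klrg1- of the second set it was at 8.14 and 7.99, and in FR3 Klrg1+ at 7.29. The groups of the first set formed 3 levels without overlap. Ifng rose by 0.92 ± 0.15 from FR1 to FR2 (limma adjusted p = 0.00166) and by 0.76 ± 0.15 from FR2 to FR3 Klrg1- (limma adjusted p = 0.00613), which made 3.22-fold over both steps (1.69 ± 0.15, limma adjusted p = 1.81e-06). In FR3 Klrg1+ it was lower by 0.78 ± 0.18 than in FR3 Klrg1- of the same set (-0.78, limma adjusted p = 0.0219), below all 4 FR3 Klrg1- arrays. The array placed in no group, whose Klrg1 was as high as in FR3 Klrg1+, had Ifng at 8.01, within the range of FR3 Klrg1-. Of the 11 measured NK cell markers, Cd160 and Klrb1c were called higher in FR3 Klrg1- against FR2 and FR1 and lower in FR3 Klrg1+. Ifng was called in the same directions in these comparisons. In FR2 against FR1 Ifng rose, Itga2 was higher, Prf1 was lower, and Cd160 and Klrb1c were not called. In FR3 Klrg1+, where Cd160 and Klrb1c were lower, Itga2 and Prf1 were both higher. Itga2 was also lower in FR3 Klrg1- against FR2, and Prf1 lower in FR3 Klrg1- against FR1. Klrb1c was below the array median throughout, and the part of NK cells in the result was not tested. The FR3 Klrg1- means of the sets differed by -0.03. The second rise was lost without FR2 replicate 1 (0.70, limma adjusted p = 0.0963) or FR3 Klrg1- replicate 1 (0.58, limma adjusted p = 0.138), and the fall in FR3 Klrg1+ without FR3 Klrg1- replicate 3 (-0.70, limma adjusted p = 0.0511).

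Of the IL-12 receptor chains, Il12rb1, which is shared with the IL-23 receptor, was at 7.80 and 7.75 in FR1, 8.37 and 8.36 in FR2, and 8.50 and 8.35 in FR3 Klrg1- of the first set. FR1 lay below the other groups of that set. Il12rb1 rose by 0.58 ± 0.14 in FR2 (limma adjusted p = 0.0333) and was 0.64 ± 0.14 higher in FR3 Klrg1- than in FR1 (limma adjusted p = 0.00998). The call in FR2 was lost without any one of the FR1 or FR2 arrays (0.56 to 0.61, limma adjusted p = 0.123 to 0.228), and the call in FR3 Klrg1- without FR1 replicate 1 (limma adjusted p = 0.0558), FR1 replicate 2 (0.0858) or FR3 Klrg1- replicate 1 (0.124). In the second set Il12rb1 was lower, at 7.12 and 7.51 in FR3 Klrg1- and 7.68 in FR3 Klrg1+ (difference 0.36, 95% interval -0.02 to 0.74), and the FR3 Klrg1- means of the sets differed by -1.11.

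Il12rb2, the chain specific to IL-12 and known to be induced in Th1 cells, was dim and stayed around percentile 25 of the arrays. It was at 5.26 and 5.21 in FR1, 5.47 and 4.99 in FR2, 5.21 and 5.21 in FR3 Klrg1- of the first set, 5.41 and 5.18 in FR3 Klrg1- of the second and 5.16 in FR3 Klrg1+. All 9 grouped arrays had it below the array's median gene, and 4 of them below percentile 25. Its differences ran from -0.13 to -0.01 over the 4 comparisons and did not pass, and at such an intensity a small change may not be detectable.

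Il18r1, the IL-18 binding chain, had the largest change of the 9 genes from FR2 to FR3 Klrg1-. From FR1 to FR2 its change and that of Il18rap (1.72) were nearly equal and the largest of the 9. It was at 7.72 and 8.01 in FR1, at 9.55 and 9.63 in FR2 and at 7.77 and 8.02 in FR3 Klrg1- of the first set. FR2 stood apart from both neighbours, while FR1 and FR3 Klrg1- overlapped. Il18r1 rose by 1.73 ± 0.14, or 3.31-fold, from FR1 to FR2 (limma adjusted p = 4.54e-06) and fell by 1.70 ± 0.14 from FR2 to FR3 Klrg1- (-1.70, limma adjusted p = 5.65e-06). FR3 Klrg1- and FR1 differed by 0.03, with a 95% interval of -0.27 to 0.34.

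In the second set Il18r1 was at 9.35 on both FR3 Klrg1- arrays and at 10.12 in FR3 Klrg1+, a rise of 0.77 ± 0.17 (limma adjusted p = 0.0200). FR3 Klrg1- of the second set thus lay 1.46 above FR3 Klrg1- of the first, close to the level of FR2. Without the array set as a term, the difference between FR3 Klrg1- and FR2 was -0.97 (limma adjusted p = 0.463) and that between FR3 Klrg1+ and FR3 Klrg1- 1.50 (limma adjusted p = 0.444). The fall after FR2 was therefore measured in the first set alone, which held both groups.

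Il18rap, the signalling partner of Il18r1, was at 6.11 and 6.18 in FR1, 7.83 and 7.90 in FR2, and 7.25 and 7.40 in FR3 Klrg1- of the first set. The 3 groups did not overlap, with FR2 highest and FR1 lowest. Il18rap rose by 1.72 ± 0.17 from FR1 to FR2 (limma adjusted p = 2.07e-05), and was 1.18 ± 0.17 higher in FR3 Klrg1- than in FR1 (limma adjusted p = 0.000249). The difference of FR3 Klrg1- from FR2, -0.54 with a 95% interval of -0.90 to -0.18, did not pass over all genes (limma adjusted p = 0.0957). It passed with the arrays of the first set alone, or equally without FR3 Klrg1- replicate 3 or 4 (0.0137 in limma), and with the replicate number as a block (0.00961).

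FR3 Klrg1+ had the highest Il18rap of the grouped arrays, at 9.00 against 7.91 and 7.30 in FR3 Klrg1- of the same set. The rise was 1.40 ± 0.21, or 2.63-fold (limma adjusted p = 0.00156). The NK cell markers, many of which accompany Il18rap in NK cells, averaged 5.65 on the FR3 Klrg1+ array and 5.64 and 5.81 on the FR3 Klrg1- arrays of that set, with Itga2 and Prf1 higher and Cd160, Klrb1c and Tyrobp lower by the test. The array placed in no group, whose Klrg1 was as high, also had high levels of Il18r1 (10.24) and Il18rap (9.03), and it entered no test.

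The interferon-gamma receptor chains were both lower in FR3 Klrg1- than in FR1. Ifngr1, the binding chain, was at 10.59 and 10.80 in FR1, 10.77 and 10.85 in FR2, and 9.93 and 10.07 in FR3 Klrg1- of the first set. FR1 and FR2 overlapped and FR3 Klrg1- lay below both. Ifngr1 fell by 0.81 ± 0.14 from FR2 to FR3 Klrg1- (-0.81, limma adjusted p = 0.00233) and was 0.69 ± 0.14 lower in FR3 Klrg1- than in FR1 (-0.69, limma adjusted p = 0.00349). Without FR3 Klrg1- replicate 1 both calls were lost (-0.74, limma adjusted p = 0.0513, and -0.62, limma adjusted p = 0.0611), and the second also without FR1 replicate 2 (-0.59, limma adjusted p = 0.0611). In the second set it stood at 9.63 and 9.44 in FR3 Klrg1- and 9.84 in FR3 Klrg1+ (difference 0.31, 95% interval -0.05 to 0.66).

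Ifngr2, the signalling chain, was at 10.38 and 10.65 in FR1, 9.28 and 9.43 in FR2, and 9.14 and 9.07 in FR3 Klrg1- of the first set. FR1 lay above all other arrays. Ifngr2 fell by 1.16 ± 0.14 from FR1 to FR2 (-1.16, limma adjusted p = 0.000107) and was lower by 1.41 ± 0.14 in FR3 Klrg1- than in FR1 (-1.41, limma adjusted p = 5.89e-06). The further difference from FR2 to FR3 Klrg1-, -0.25 with a 95% interval of -0.54 to 0.04, did not pass. In the second set Ifngr2 was lower than in the first, at 8.02 and 7.95 in FR3 Klrg1- and 7.81 in FR3 Klrg1+, and the FR3 Klrg1- means of the sets differed by -1.12.

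**Figure D2:**
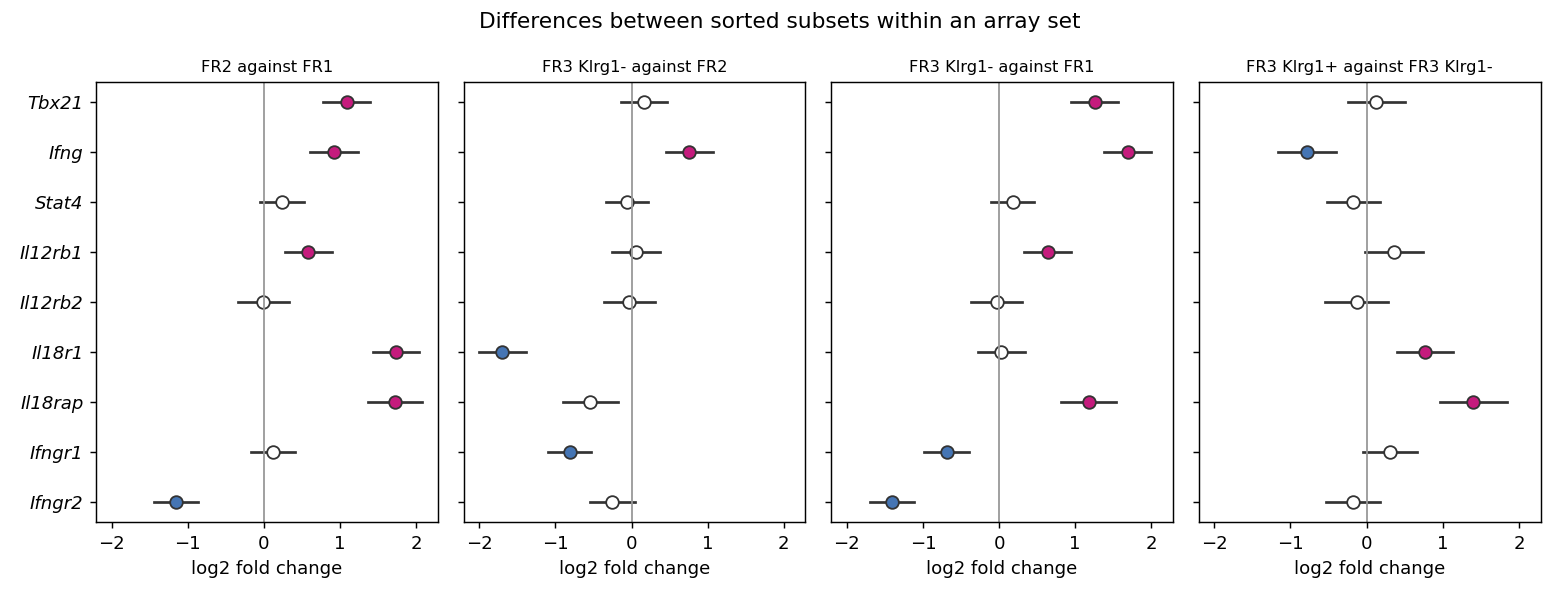
The log2 fold change of each of the 9 genes (horizontal axis) is plotted for 4 comparisons, 1 per panel, with bars for the 95% interval of the limma fit with the array set as a term. Filled points passed at an adjusted p under 0.05, pink for higher and blue for lower, and open points did not. From FR1 to FR2 there are 5 pink points and 1 blue, while Il18r1 lies at 1.73 in the first panel and at -1.70 in the second.

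The signed change at the second step (FR2 to FR3 Klrg1-) minus that at the first (FR1 to FR2) was tested directly, so a gene that rose and then fell by as much also passes. Of the 9 genes 3 passed, all with a negative difference, where 1.07% of all genes were lower and 1.6% higher. Il18r1 differed by -3.42 ± 0.24 (limma adjusted p = 3.73e-06) and Il18rap by -2.26 ± 0.29 (limma adjusted p = 0.000753). Ifngr1 differed by -0.94 ± 0.23 (limma adjusted p = 0.0482), a call that was lost without any one of the 6 arrays of the first set (limma adjusted p = 0.0699 to 0.338). For Tbx21 (-0.92, limma adjusted p = 0.0654) and Ifngr2 (0.91, 0.0533) the difference missed the threshold, and it passed for both with the first set alone, or without FR3 Klrg1- replicate 3 or 4 (0.0227 and 0.0329). Without the array set as a term, Il18r1 (-2.70, limma adjusted p = 0.735) and Il18rap (-2.12, 0.251) did not pass either. Ifng gave -0.16, with a 95% interval of -0.70 to 0.38.

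The calls were also made without the array set as a term. Of the 18 calls on the 9 genes in the 4 comparisons, 6 remained in limma without it: Tbx21 and Il18rap in FR2, and Tbx21, Ifng, Il18rap and Ifngr2 in FR3 Klrg1-, both against FR1. All 18 remained with the arrays of each set fitted alone.

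Il18r1 and Il18rap lie next to each other on mouse chromosome 1, in a cluster of IL-1 receptor family genes that runs Il1r2, Il1r1, Il1rl2, Il1rl1, Il18r1, Il18rap in RefSeq. Of these, Il1r2, Il1rl2 and the IL-18 receptor pair were measured. Il1r2, a decoy receptor of IL-1, went 5.71 and 5.75 in FR1, 7.19 and 6.90 in FR2, and 9.29 and 9.81 in FR3 Klrg1- of the first set. It rose at both steps, by 1.32 (limma adjusted p = 0.000398) and 2.51 (1.70e-06). From FR3 Klrg1- to FR3 Klrg1+ it differed by -0.53 and did not pass (limma adjusted p = 0.185). Il1rl2, a receptor chain of IL-36, ran from 4.95 to 5.68 on the grouped arrays, below the median gene on each, and did not pass in any comparison.

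**Figure D3:**
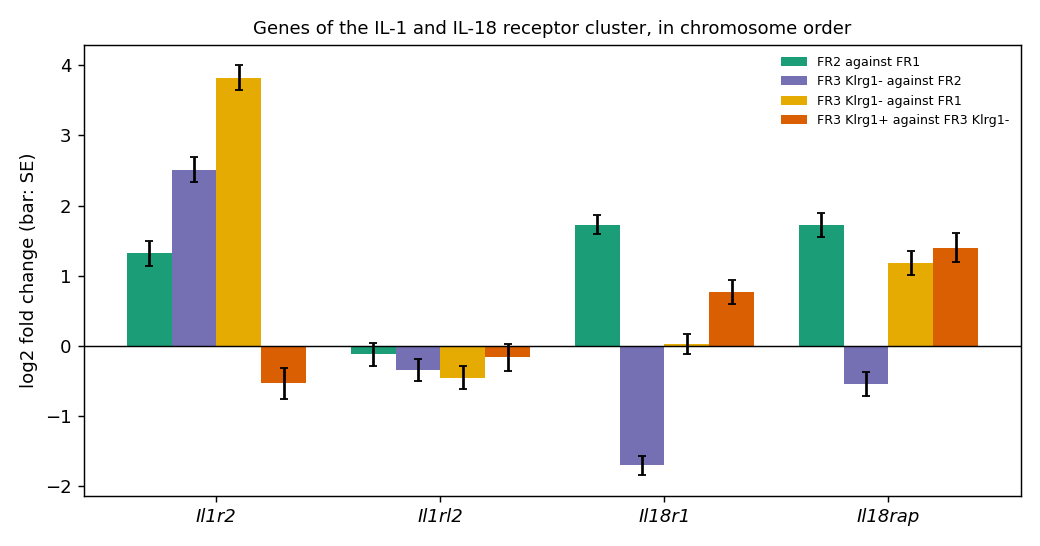
Bars give the log2 fold change of 4 measured genes of the receptor cluster, in their order on the chromosome, for each of 4 comparisons, with the SE of the limma fit. Il1r2 rises by 1.32 and 2.51 at successive gates, while Il18r1 rises by 1.73 and then falls (-1.70).

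Other genes of the pathway were counted in 6 lists. Of 24 measured partners and targets of T-bet, 8 rose in FR2 against FR1 (median 0.36), 3 rose and 1 fell in FR3 Klrg1- against FR2 (median 0.26), 13 rose in FR3 Klrg1- against FR1 (median 0.50), and 8 rose and 2 fell in FR3 Klrg1+ (median 0.26). The medians over all genes lay between 0.00 and 0.02. For this and the lists that follow, the shares of all genes called higher and lower were 1.96% and 2.3% in FR2, 2.81% and 1.94% in FR3 Klrg1- against FR2, 4.39% and 3.79% in FR3 Klrg1- against FR1, and 2.14% and 2.82% in FR3 Klrg1+. Cxcr3, a chemokine receptor of Th1 cells, rose by 2.59 in FR2 (limma adjusted p = 2.29e-07) and did not pass from FR2 to FR3 Klrg1- (-0.05). Cxcr6, a homing receptor, rose by 1.64 in FR2 and by a further 1.97 in FR3 Klrg1+ (limma adjusted p = 0.000371 and 0.000800). The cytokine Il10 rose at every step, by 2.10, 1.64 and, in FR3 Klrg1+, 1.26 (limma adjusted p = 2.12e-05, 0.000257 and 0.0110), and the transcription factor Bhlhe40 by 0.91 and 1.34 at both steps of the first set (0.00604 and 0.000273). The first of these Bhlhe40 calls was lost without FR1 replicate 1 or FR2 replicate 2 (adjusted p up to 0.0960). The 1 fall in FR3 Klrg1- against FR2 was that of Runx3, a partner of T-bet, which rose by 0.85 in FR2 (limma adjusted p = 0.00750) and then fell by 0.81 (-0.81, 0.00977). That count of 1 came to 0 without FR2 replicate 1, FR2 replicate 2 or FR3 Klrg1- replicate 1, and the 2 that fell in FR3 Klrg1+ (Lta and Xcl1) came to 1 without FR3 Klrg1- replicate 3.

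Genes that respond to interferon-gamma lie downstream of both receptor chains. Of 19 measured, 2 rose and 1 fell in FR2, 3 rose in FR3 Klrg1- against FR2, 4 rose and 2 fell in FR3 Klrg1- against FR1, and 1 rose and 1 fell in FR3 Klrg1+, with medians from 0.00 to 0.11. Most of these counts changed when 1 array was left out. In FR2, the 2 that rose came to 1 without any one FR1 or FR2 array, and the 1 that fell (Psmb9) came to 0 without any one FR1, FR2 or first-set FR3 Klrg1- array and to 2 without FR3 Klrg1- replicate 3 or 4. In FR3 Klrg1- against FR2, the 3 that rose came to 1 without any one FR2 or first-set FR3 Klrg1- array. In FR3 Klrg1- against FR1, the 4 that rose came to 1 without FR1 replicate 1 or FR3 Klrg1- replicate 1 and to 2 without FR3 Klrg1- replicate 2, and the 2 that fell came to 0 or 1 without any one array of the first set. In FR3 Klrg1+ the 1 fall was that of Iigp1 (-0.66, limma adjusted p = 0.0434), lost without any one FR1 or FR2 array or FR3 Klrg1- replicate 3. Cxcl10, a chemokine that binds Cxcr3, rose at both steps, by 1.67 and 1.24 (limma adjusted p = 0.000120 and 0.00172). Irf8 rose by 0.64 in FR3 Klrg1- against FR1 (0.0139, lost without FR1 replicate 1 or FR3 Klrg1- replicate 1), the GTPase Gbp7 by 0.70 in FR3 Klrg1+ (0.0198), and the GTPase Iigp1 by 0.65 in FR2 (0.0171, lost without any one FR1 or FR2 array).

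Of 9 measured IL-12 family cytokines and other receptor chains, Ebi3, a subunit of IL-27 and IL-35, rose in all 4 comparisons, by 0.87 in FR2, 1.10 from FR2 to FR3 Klrg1- and 0.71 in FR3 Klrg1+ (limma adjusted p = 0.00141, 0.000212 and 0.0249). The last call was lost without FR3 Klrg1- replicate 3 (0.0595). Il23r, which pairs with Il12rb1, rose by 0.85 in FR2 (limma adjusted p = 0.00293, lost without FR1 replicate 2 or FR2 replicate 1). It was dim, at 4.34 to 5.71, below the median gene on all 9 grouped arrays and below percentile 25 on 4. The IL-6 receptor chains fell, Il6ra by 1.31 in FR3 Klrg1- against FR1 (-1.31, limma adjusted p = 9.53e-05) and Il6st by 1.37 in FR3 Klrg1+ (-1.37, 0.000145). Il12b, the chain common to IL-12 and IL-23, was below the median gene on all 9 arrays.

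Of 9 measured genes of the IL-1 and IL-18 receptor family, Il1r2 and Il18 passed in some comparison. Il18, the cytokine itself, rose by 0.72 in FR3 Klrg1- against FR1 and by 0.85 in FR3 Klrg1+ (limma adjusted p = 0.00233 and 0.00925). It was below the median gene on 8 of the 9 arrays and below percentile 25 on 6, and reached 6.66 in FR3 Klrg1+. Of 18 signal transducers, 0 passed in FR2 against FR1, 2 fell in FR3 Klrg1- against FR2 (Irak3, an inhibitor of IL-18 and IL-1 signals, -0.57, and the cytokine inhibitor Socs2, -0.82), 2 rose and 2 fell in FR3 Klrg1- against FR1, and 1 rose in FR3 Klrg1+ (Irak3, 0.89, limma adjusted p = 0.00936). The fall of Irak3 after FR2 was lost without any one FR2 or first-set FR3 Klrg1- array. Against FR1, the rise of Cish was lost without any one FR1 or first-set FR3 Klrg1- array, and the fall of Socs2 without FR1 replicate 2 or FR3 Klrg1- replicate 1 or 2, so each count of 2 came to 1. Without FR3 Klrg1- replicate 4, 2 of the 18 also fell in FR3 Klrg1+.

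Regulators and cytokines of other T helper fates were counted beside Tbx21. Of 17 measured, 3 rose and 1 fell in FR2, 3 rose and 1 fell in FR3 Klrg1- against FR2, 7 rose and 3 fell in FR3 Klrg1- against FR1, and 4 rose and 1 fell in FR3 Klrg1+. The 1 that fell in FR2 (Il4ra) came to 0 without any one array of the first set, and so did the 1 that fell in FR3 Klrg1- against FR2 (Il17ra) without any one FR2 or first-set FR3 Klrg1- array, and each came to 2 without FR3 Klrg1- replicate 3 or 4. Maf and Rora, transcription factors of IL-10 and IL-17 producing cells, rose by 1.72 and 1.61 in FR2 (limma adjusted p = 3.80e-06 each). Bcl6, the regulator of follicular T cells, rose by 1.39 from FR2 to FR3 Klrg1- (0.000204). Pparg, known in tissue Tregs, rose by 2.09 in FR3 Klrg1+ (limma adjusted p = 3.04e-05), where Bcl6 differed by -0.78 (0.0448, lost without FR3 Klrg1- replicate 3 or 4 or either FR1 array). The 22 genes named from the lists by rule made 49 calls, of which 7 held without the array set in the fit. When any one array of FR1, FR2 or FR3 Klrg1- was left out, 36 held. The single FR3 Klrg1+ array was not left out.

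**Figure D4:**
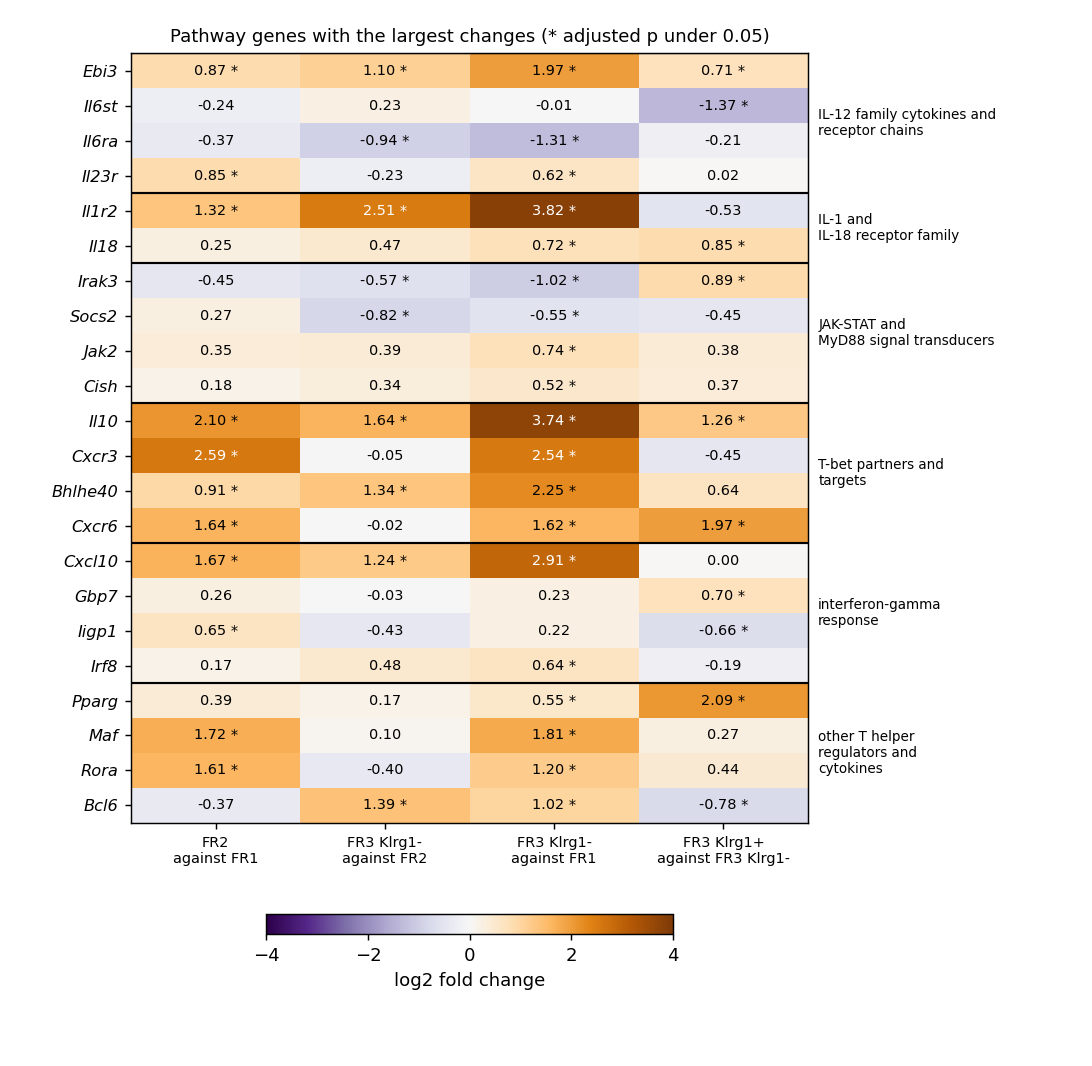
Colour and number give the log2 fold change of 22 genes of the 6 lists (rows) in 4 comparisons (columns), with an asterisk where limma gave an adjusted p under 0.05 with the array set as a term. Up to 4 genes per list are shown, those with the largest change that passed. Il10 and Ebi3 are higher in every column, while Cxcr3 and Maf are higher in both comparisons against FR1 and at -0.05 and 0.10 from FR2 to FR3 Klrg1-.

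Genes with the most similar profile were sought by the root mean square difference from the gene's log2 values over the 9 grouped arrays, after centring within each array set, among 855 genes that spanned 1 or more in the first set. Those nearest to Tbx21 were Bmp7 (0.11), Rnf43, Atxn1, Nsd2 and Slc9a7 (0.13 each), which were 1.01 to 1.30 higher in FR2 and 0.10 to 0.16 higher again in FR3 Klrg1-. Nearest to Ifng were Prelid2 (0.14), Lclat1 and Actg2 (0.17) and Slc22a15 and Hif1a (0.18), all 5 with a lower value in FR3 Klrg1+ (-1.31 to -0.22).

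Nearest to Il18r1 were the integrin chain Itga2 (0.19), the homing receptor Gpr15 (0.20), S100a6 and Il9r (0.25) and Gna15 (0.26). Itga2 is also on the list of NK cell markers. It was called higher in FR2, lower from FR2 to FR3 Klrg1- and higher in FR3 Klrg1+, as Il18r1 was. Other markers of that list differed. Cd160 and Klrb1c were higher from FR2 to FR3 Klrg1- and lower in FR3 Klrg1+, where Tyrobp was also lower. Prf1 was lower in FR2 and higher in FR3 Klrg1+. The part of NK cells in this was not tested. Itga2 was 1.59 higher in FR2 and then at -1.93 in FR3 Klrg1- against FR2. In that second step Gpr15, S100a6, Il9r and Gna15 were at -1.45 to -1.08. Nearest to Il18rap were the protease gene Gzmb (0.20), Osbpl3 (0.24), AI504432 (0.27), the chemokine receptor Ccr3 (0.28) and Ahr (0.29), each at 0.67 to 1.85 in FR3 Klrg1+ against FR3 Klrg1-. These arrays share their sets and their gates, and likeness of profile says nothing of function.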

How the data were processed

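RNA of sorted spleen Tregs (20 to 50 ng per sample, per the labels) was amplified and hybridised to 10 arrays. The deposited values are log2 intensities per probe set, made by the authors with RMA per the submitters' processing notes, and the sources used here do not say if this was 1 joint normalization. Of 35556 probe sets, 21789 had 1 gene symbol in the platform annotation, 1621 had several and 12146 were not listed. The brightest probe set per gene left 19938 genes, with no intensity filter.

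The 4 comparisons and the test between steps used limma 3.58.1 (R 4.3.3), in 1 fit over 9 arrays with group and array set as terms (4 residual degrees of freedom), and Benjamini-Hochberg adjustment at 0.05. The array sets were given with the genes and follow the correlation between arrays. The fit was tested on simulated data. Members, lists and array sets were chosen with earlier results of these data known. Pathway genes were named by rule, up to 4 per list with the largest change that passed, and Runx3, Il12b, Il1rl2, Psmb9, Il4ra, Il17ra, Lta and Xcl1 after their values were seen. Precision is limited by the few arrays per group. Alternatives were the fit without array set, each set alone, quantile normalization, leaving out genes whose mean was under percentile 40, and an intensity trend. Further ones were array weights, every probe set, a replicate block and leaving out each array of FR1, FR2 and FR3 Klrg1-. The single FR3 Klrg1+ array was not left out in any fit, since its comparison would not remain.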

Additional observations from a re-analysis of the deposited data

Results flagged for a closer look

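Il12rb2 in FR3 Klrg1- had 1 array far from the others: replicate 3 stood at 5.41, while the other 3 lay at 5.18 to 5.21. The gap took up a share of 0.908 of the range, above the critical value of Dixon's test for 4 samples. Replicates 3 and 4 belong to the second array set, and the test took all 4 arrays as 1 group. Chance flags about 1 in 20 such groups, and 9 genes were examined. The gene was below the median gene on all grouped arrays, and the whole range was narrow.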

How the results depend on the processing

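All 18 calls on the 9 genes remained with each set alone, an intensity trend, dim genes left out and quantile normalization. They also remained with every probe set and with array weights. When 1 array of FR1, FR2 or FR3 Klrg1- was left out, 14 to 18 remained, fewest without FR3 Klrg1- replicate 1. The single FR3 Klrg1+ array was not left out in any fit. Without the array set as a term 6 remained. In that fit 2 of the 9 genes were higher and 0 lower in FR2 against FR1 (52 of all genes called), 0 and 0 in FR3 Klrg1- against FR2 (55), 1 was lower in FR3 Klrg1- against FR1 (439), 0 and 0 passed in FR3 Klrg1+ (22), and 0 were lower in the difference of steps (9). It also turned Cish (-0.12, limma adjusted p = 0.903) and Cd4 (-0.34, 0.766) in FR3 Klrg1- against FR1.

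Counts over all genes moved more. FR2 against FR1 had 850 calls, and 1331 with the first set alone, 1401 with dim genes left out and 253 to 1331 with 1 array left out. FR3 Klrg1- against FR2 had 948, 1618 with array weights and 302 to 1318 with 1 array left out, where 0 to 1 of the 9 genes were higher and 1 to 3 lower. FR3 Klrg1- against FR1 had 1632 and 910 to 2063, with 1 to 2 of the 9 genes lower. FR3 Klrg1+ had 989 and 721 to 1553, with 0 to 1 of the 9 lower. The difference of steps had 533, then 893 with the first set alone, 871 with a trend, 939 with dim genes left out and 948 with array weights, with 1 of the 9 genes higher (Ifngr2) under each of these. With 1 array left out it had 62 to 893, with 0 to 1 of the 9 genes higher and 2 to 4 lower. The cause of these shifts was not tested.

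In the first set, the deviations of arrays of the same replicate number correlated at 0.1814 between FR1 and FR2. The value was 0.1436 between FR1 and FR3 Klrg1-, and 0.02291 between FR2 and FR3 Klrg1-. Each value rests on 1 difference between 2 arrays per group, so it cannot decide whether the numbers pair the arrays. With the replicate block, 15 of 15 calls on the 9 genes remained, all genes called came to 1669, 1586 and, for the difference of steps, 1187, and 1 of the 9 genes was higher in the latter. No block could be fitted for FR3 Klrg1+, and other probe sets of the 9 genes were not run since each has 1.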

Other observations

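The array placed in no group had Tbx21 at 7.39, Ifng at 8.01, Stat4 at 10.23, Il12rb1 at 7.42 and Il12rb2 at 5.18 (log2 RMA intensity). Its IL-18 receptor chains were at 10.24 for Il18r1 and 9.03 for Il18rap, the highest of the 10 arrays for both. Ifngr1 was at 10.17 and Ifngr2 at 7.15, the lowest of the 10 arrays for the latter. Over the genes it correlated at 0.9825 to 0.9857 with the second array set and at 0.9257 to 0.9418 with the first.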
